A study of Lupinus albus with 12 samples.

Results

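Organic acids made from sugar carbon are a major product of lupin roots, and 89 of the 33388 genes in the deposited table were chosen for the path that makes and exports them, 6 of which share only the wording of a name. They were chosen by the words phosphoenolpyruvate carboxylase, citrate synthase, malate dehydrogenase, malate transporter, isocitrate dehydrogenase, aconitate hydratase, malic enzyme or fumarate hydratase in the protein name, and 0 of the genes so found had to be left out for a name with the word kinase. The rule itself uses the names and no measured values, but it was set with earlier results of these data known.

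The study asked how white lupin roots respond to sucrose acting as a signal. It used Lupinus albus of cultivar Amiga, labelled wildtype, grown in hydroponic Hoagland solution. The 4 groups of 3 plants were untreated controls at 0 min and plants whose roots had 10 mM sucrose in the solution for 20, 40 or 80 min. Root tip sections of 1 plant made each of the 12 polyadenylated RNA libraries. Plant age and the phosphate status of the solution are not stated in the labels. Controls were taken at 0 min only, so the time of exposure cannot be told apart from time since handling or time of day.

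In plants, phosphoenolpyruvate carboxylase fixes bicarbonate onto phosphoenolpyruvate to give oxaloacetate, which malate dehydrogenase reduces to malate and citrate synthase joins with acetyl-CoA to give citrate. Aconitase, isocitrate dehydrogenase and fumarase are further steps of the tricarboxylic acid cycle, malic enzyme takes malate back to pyruvate, and ATP-citrate synthase cleaves citrate in the cytosol to give acetyl-CoA. White lupin is known for the cluster roots it forms when phosphate is scarce, which release citrate and malate and so free phosphate in soil.

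Library totals ran from 35050877 reads (20 min, replicate 2) to 105299704 reads (80 min, replicate 2). CPM stands for the count of a gene relative to the library total, scaled with edgeR's TMM factors. On the axis that separates the libraries most in log2 CPM, which holds 18.8% of their variance, 20 min replicate 2 lay at 156 and 80 min replicate 3 at 108, far from the other plants of their groups (10.6 and -21.0 at 20 min, -145 and -129 at 80 min). At 40 min replicate 2 lay at 85.7 and the other plants at -20.1 and -10.7, and control replicate 3 lay at 33.5 and the other controls at -33.3 and -34.8. The alcohol dehydrogenase 1 gene Lalb_Chr23g0271341, of the low-oxygen response, was far higher at 20 min in replicates 1 and 3, with 23824 and 15682 CPM, than in replicate 2, with 902 CPM. All genes matched by the low-oxygen words (39, some of them cinnamyl-alcohol dehydrogenases) summed to 31468, 2756 and 21379.9 CPM at 20 min, and to between 5779 and 8563 CPM in the controls. At 40 and 80 min they summed to between 2399 and 4561 CPM, below every control in all 6 libraries. The 111 photosynthesis genes of the leaf list summed to 1958, 570.2 and 1318 CPM at 20 min and to between 349 and 729 CPM in the other 9 libraries. The 54 genes of the root list, led by an expansin, summed to between 950.4 and 1709 CPM over the 12 libraries, and in each of the 3 lists 0 genes were without a read. Each comparison is also given without 20 min replicate 2 and 80 min replicate 3, the 2 libraries with the highest values on that axis.

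Of the 89 genes, 83 code for the enzymes and transporters named above. The other 6 matched by wording only. They are 4 genes for 3-isopropylmalate dehydrogenase, an enzyme of leucine synthesis, and 2 for homocitrate synthase. The rule found 10 phosphoenolpyruvate carboxylases, 4 citrate synthases, 8 ATP-citrate synthases, 5 aconitases, 10 isocitrate dehydrogenases, 3 fumarases, 15 malate dehydrogenases, 13 malic enzymes and 15 aluminium-activated malate transporters. Of the 13 malic enzymes, 4 are named as decarboxylating malate dehydrogenases, another name of the enzyme. The genes lie on 23 chromosomes of the assembly CNRS_Lalb_1.0, and 6 pairs of them are direct neighbours with 0 protein-coding genes or pseudogenes between. The 2 fumarases Lalb_Chr02g0146531 and Lalb_Chr02g0146541 form such a pair, as do the transporters Lalb_Chr22g0352991 and Lalb_Chr22g0353001. The phosphoenolpyruvate carboxylases Lalb_Chr03g0029911 and Lalb_Chr03g0029921 adjoin each other with protein lengths of 730 and 220 residues, while 8 of the 10 enzymes of that name have 966 to 1044 residues. Near-identical copies may share reads, since the labels do not say how multiply mapped reads were counted.

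Levels between genes are compared in the deposited FPKM, which is per length. The most abundant gene was the malate dehydrogenase Lalb_Chr21g0312041, with a mean of 197 FPKM over the 12 libraries. The malate dehydrogenases Lalb_Chr19g0133911 and Lalb_Chr01g0006731, both annotated to the mitochondrial matrix, followed at 138 and 132 FPKM. The NADP-dependent isocitrate dehydrogenase Lalb_Chr04g0251491 stood at 113 FPKM and the malic enzyme Lalb_Chr11g0064571 at 104 FPKM. Of the 89 genes, 63 had a mean above 1 FPKM, 41 above 10 FPKM and 13 above 50 FPKM.

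The classes differed in how the level was spread over their genes. Fumarase was 1 gene, Lalb_Chr21g0309351 at 51.4 FPKM, which held 99.9% of the class's summed FPKM, and citrate synthase was mainly 1 gene, Lalb_Chr25g0283641 at 73.9 FPKM with 69.1% of the sum. Phosphoenolpyruvate carboxylase was led by Lalb_Chr01g0006821 at 95.0 FPKM and Lalb_Chr03g0031131 at 82.6 FPKM, with the other 8 genes at 15.4 FPKM or less. In ATP-citrate synthase the top gene, Lalb_Chr20g0108311 at 39.1 FPKM, held 18.3% of the sum and the lowest stood at 8.34 FPKM. The enzyme of plants has 2 kinds of subunit, and the proteins of this class fall into 5 of 418 to 423 residues and 3 of 608 residues, with summed means of 144 and 69.7 FPKM.

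Aconitase was led by Lalb_Chr01g0005651 at 69.4 FPKM and Lalb_Chr03g0028741 at 61.2 FPKM. The NAD-dependent isocitrate dehydrogenases, the enzyme of the cycle itself, reached 34.3 FPKM in Lalb_Chr05g0211941. The 2 chloroplastic NADP-dependent malate dehydrogenases stood at 3.13 and 1.94 FPKM. The top malate transporter, Lalb_Chr06g0168631, stood at 28.4 FPKM, the next, Lalb_Chr14g0371241, at 12.8 FPKM, and 9 of the 15 had a mean above 1 FPKM.

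**Figure D1:**
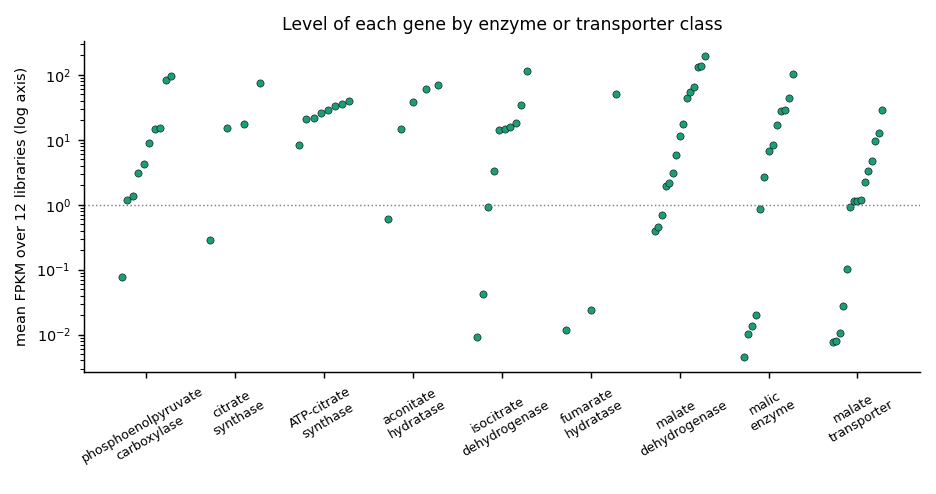
Mean FPKM over the 12 libraries of each gene, on a log axis, for the 9 enzyme or transporter classes; each point is a gene and the dotted line marks 1 FPKM. Malate dehydrogenase holds the highest gene at 197 FPKM, and fumarase and citrate synthase each have a single gene far above the rest.

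Of the 89 genes, 74 passed the filter on low counts and were tested. The 15 that did not had 5 to 159 reads in all over the 12 libraries. They were 4 malate transporters, 4 malic enzymes, 2 isocitrate dehydrogenases, 2 fumarases, 2 homocitrate synthases and 1 3-isopropylmalate dehydrogenase. The transporter Lalb_Chr24g0393391 was among them. It held 0 reads in each control and 9, 69 and 12 reads in the 20 min plants, so the reads at 20 min came mostly from replicate 2. At 40 min the gene held 6, 8 and 49 reads, and at 80 min 6, 0 and 0 reads. The authors' deposited DESeq2 results give it a log2 fold change of 7.74 at 20 min with an adjusted p of 0.0138. They give 6.39 at 40 min (adjusted p = 0.113) and 2.80 at 80 min (adjusted p = 0.628).

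With edgeR's quasi-likelihood test over 28980 genes, 0 of the 74 genes passed, in any comparison, the threshold of 0.05 on the adjusted p. The share of all genes called was 0.0242% at 20 min, 0.0897% at 40 min and 0.0104% at 80 min against control, and 0.0725% in the F test over the 4 times. It was 0% in each of the 3 comparisons between sucrose times, 40 against 20 min, 80 against 40 min and 80 against 20 min.

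At an unadjusted p below 0.05, the count against control was 10 of 74 genes at 20 min (13.5%, 3 higher and 7 lower), against 12.6% of all genes. At 40 min it was 5 (6.76%, 0 higher), against 5.99% of all genes, and at 80 min 5 (6.76%, 0 higher), against 9.91%. Between sucrose times it was 10 for 40 against 20 min (13.5%; all genes 14.2%), 2 for 80 against 40 min (2.70%; all genes 4.51%) and 9 for 80 against 20 min (12.2%; all genes 17.3%). In the F test it was 6 (8.11%; all genes 13.4%). These shares were close to the background or below it.

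DESeq2 called more genes overall. At an adjusted p below 0.05 it called 3 genes of the path at 20 min (4.11% of those with an adjusted p; all genes 4.51%), 2 at 40 min (2.74%; all genes 2.05%) and 2 at 80 min (2.78%; all genes 3.22%), all lower than control. Between sucrose times it called 2 for 40 against 20 min (2.78%; all genes 5.25%), 0 for 80 against 40 min (all genes 0.901%) and 3 for 80 against 20 min (4.23%; all genes 7.93%). In its likelihood ratio test over the 4 times it called 5 (6.94%; all genes 8.67%). The authors' deposited DESeq2 results hold an adjusted p below 0.05 for 4 of the 89 genes at 20 min, 1 up and 3 down. They do so for 2 at 40 min and for 2 at 80 min, these all down. Some of the 89 genes have no adjusted p in them. The share of all genes called in these deposited results is not given here, so the counts were not set against a background.

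Plants differed more within each sucrose group than within the controls, which were separate plants. The 20 and 80 min groups hold the 2 libraries that stand apart, and the cause of the wider spread was not tested. The median coefficient of variation of CPM over the 74 genes was 16.3% among controls, 31.5% at 20 min, 24.8% at 40 min and 37.7% at 80 min. Over all 28980 genes it was 25.5%, 36.7%, 30.6% and 39.9%, the same order of groups at higher values.

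The median log2 fold change of the 74 genes at 20 min was -0.25, with 47 below 0 and 27 above, while the median of all genes tested was 0.06. In root sections, fewer cells of a type and less RNA per cell cannot be told apart. At 40 and 80 min the medians were 0.00 and -0.04, against 0.08 and 0.12 for all genes. From 20 to 40 min the median was 0.17 and from 20 to 80 min 0.20, against -0.02 for all genes in both. The 20 min plants are shared by these last comparisons and by the first, so they are not separate evidence. Below, groups are also described by whether their plants overlap. The share of all genes tested, or of sums over other genes, whose groups do not overlap is not given here. Genes named for a small p were chosen by these same values, so a lack of overlap in them is not separate evidence.

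**Figure D2:**
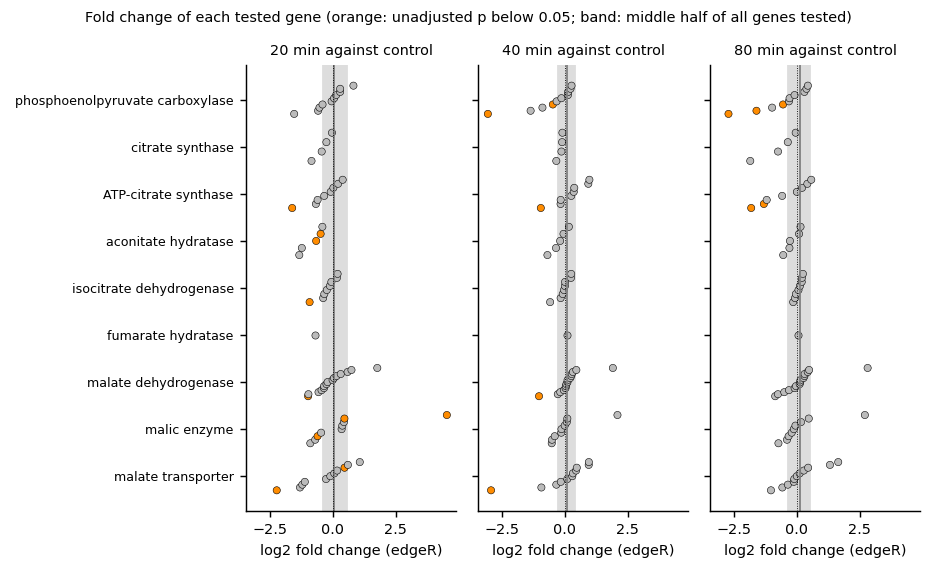
Log2 fold change at 20, 40 and 80 min against control (edgeR, 3 plants a group) of each tested gene of the 9 enzyme or transporter classes; the grey band spans the middle 50% of all genes tested and the grey line is their median. Orange points have an unadjusted p below 0.05, while 0 genes passed the adjusted threshold. At 20 min all 5 aconitases and all 4 citrate synthases lie below 0. All 4 citrate synthases also lie below 0 at 40 min and at 80 min, as do 4 aconitases at 40 min and 3 at 80 min.

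Phosphoenolpyruvate carboxylase, the entry of carbon into the path, differed less as a sum over its genes than in single genes. Its 10 genes summed to 1503, 1322 and 1347 CPM in the controls, to 1150.2, 1249.8 and 1181 CPM at 20 min, to 1338, 1329.6 and 1449 CPM at 40 min, and to 1288, 1226 and 1061 CPM at 80 min. The sums at 20 min lay below every control, those at 40 min overlapped the controls, and those at 80 min again lay below them.

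The gene with the widest difference was Lalb_Chr25g0285901, a carboxylase of 968 residues with a mean of 14.4 FPKM. It stood at 215, 174 and 28.8 CPM in the controls and at 205, 53.9 and 200.1 CPM at 20 min. It stood at 10.2, 13.0 and 27.1 CPM at 40 min and at 25.9, 17.8 and 20.1 CPM at 80 min. All 6 plants at 40 and 80 min were below every control and every 20 min plant, and control replicate 3 was itself close to them. Against control the log2 fold change was -3.05 at 40 min (SE 0.75; edgeR adjusted p = 0.280, DESeq2 adjusted p = 0.00113) and -2.71 at 80 min (SE 0.74; edgeR adjusted p = 0.323, DESeq2 adjusted p = 0.00619). From 20 to 40 min it was -3.19 (SE 0.75; edgeR adjusted p = 0.214, DESeq2 adjusted p = 0.000729), and without 20 min replicate 2 that edgeR adjusted p was 0.0298. The authors' deposited table gives -3.09 at 40 min and -2.74 at 80 min, with adjusted p-values of 0.00134 and 0.00745.

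The most abundant carboxylase, Lalb_Chr01g0006821, stood at 602, 501 and 685 CPM in the controls and at 279, 686 and 277 CPM at 20 min. Replicates 1 and 3 were below every control and replicate 2 was not. It differed from control by -0.53 on the log2 scale with that plant (SE 0.36; edgeR adjusted p = 0.563) and by -1.19 without it and 80 min replicate 3 (edgeR adjusted p = 0.0146). At 40 min this gene stood at 598, 766 and 795 CPM.

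The second carboxylase, Lalb_Chr03g0031131, stood at 419, 393 and 401 CPM in the controls and at 449, 328 and 483 CPM at 20 min, so the 2 main genes split the 20 min plants in opposite directions. At 80 min it stood at 717, 594 and 275 CPM, with replicate 3 below the controls and the other plants above them.

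The carboxylase Lalb_Chr20g0109301, at 1.35 FPKM, held 8.99, 8.16 and 7.99 CPM in the controls, 23.0, 4.75 and 16.8 CPM at 20 min, 3.04, 6.11 and 4.47 CPM at 40 min and 4.15, 5.52 and 3.08 CPM at 80 min. Its log2 fold change was -1.71 from 20 to 40 min (SE 0.52; edgeR adjusted p = 0.240, DESeq2 adjusted p = 0.0308) and -1.80 from 20 to 80 min (SE 0.52; edgeR adjusted p = 0.173, DESeq2 adjusted p = 0.0155). The values of 20 min replicate 2 overlap the later times.

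A longer carboxylase of 1044 residues, Lalb_Chr02g0151871, stood at 125, 133 and 105 CPM in the controls, 95.9, 82.4 and 95.7 CPM at 20 min, 98.6, 84.6 and 78.6 CPM at 40 min and 90.0, 93.3 and 65.6 CPM at 80 min. Every sucrose plant was below every control. The log2 fold changes were small, -0.47 at 40 min (SE 0.19; edgeR adjusted p = 0.751) and -0.54 at 80 min (SE 0.19; edgeR adjusted p = 0.424). Lalb_Chr22g0356901 stood at 94.2, 73.7 and 89.0 CPM in the controls and at 26.3, 6.96 and 51.5 CPM at 80 min, a log2 fold change of -1.60 (SE 0.68; edgeR adjusted p = 0.493).

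Citrate synthase, which makes the citrate, followed the split between plants at 20 min. Its 4 genes summed to 354, 422 and 403 CPM in the controls and to 219, 444 and 269 CPM at 20 min. The main gene, Lalb_Chr25g0283641, stood at 229.9, 312 and 266 CPM in the controls and at 109, 325 and 162 CPM at 20 min, a log2 fold change of -0.44 (SE 0.40; edgeR adjusted p = 0.680). At 40 min it stood at 221, 216 and 320.3 CPM and at 80 min at 332, 291 and 162 CPM.

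Another citrate synthase, Lalb_Chr10g0106821, stood at 57.2, 46.9 and 73.1 CPM in the controls and at 19.9, 28.9 and 57.0 CPM at 80 min. Replicates 1 and 2 were below the controls and replicate 3 was within them. Without 20 min replicate 2 and 80 min replicate 3 its log2 fold change at 80 min was -1.28 (edgeR adjusted p = 0.0348), and with all plants it was -0.74 (SE 0.35; edgeR adjusted p = 0.519).

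Aconitase, which turns citrate into isocitrate, was lower at 20 min in all 5 genes by the sign of the fold change, with a median of -0.66 on the log2 scale. The 5 genes summed to 1311, 1179 and 1011 CPM in the controls, to 651, 963 and 742 CPM at 20 min, to 1136, 1005 and 1261 CPM at 40 min and to 1251, 1199 and 749 CPM at 80 min. The 3 plants at 20 min and replicate 3 at 80 min lay below every control, and 40 min replicate 2 lay just below the lowest.

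The aconitase Lalb_Chr09g0321451 varied little between the control plants, at 245, 239 and 241 CPM. It stood at 163, 164 and 192 CPM at 20 min, 207, 216 and 217 CPM at 40 min and 224, 226 and 151 CPM at 80 min. Every sucrose plant was below every control, and the log2 fold change at 20 min was -0.48 (SE 0.19; edgeR adjusted p = 0.339, DESeq2 adjusted p = 0.0909). The top aconitase, Lalb_Chr01g0005651, stood at 469, 418 and 358 CPM in the controls and at 282, 364 and 290.0 CPM at 20 min, then at 479, 411 and 505 CPM at 40 min. The 40 min plants lay above every 20 min plant, by a log2 fold change of 0.58 (SE 0.23; edgeR adjusted p = 0.312).

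Fumarase, which makes malate from fumarate in the cycle, rests on Lalb_Chr21g0309351. That gene stood at 183, 170.0 and 154 CPM in the controls and at 97.6, 107 and 104 CPM at 20 min. It stood at 190.3, 122 and 229 CPM at 40 min and at 227, 210.4 and 86.2 CPM at 80 min. The 3 plants at 20 min, replicate 2 among them, lay close together and below every control, with a log2 fold change of -0.72 (SE 0.34; edgeR adjusted p = 0.420). The 40 min plants lay above every 20 min plant, by 0.81 on the log2 scale (SE 0.34; edgeR adjusted p = 0.327).

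Isocitrate dehydrogenase summed to 622, 587 and 569 CPM in the controls and to 467, 562 and 556 CPM at 20 min. Its top gene, the NADP-dependent Lalb_Chr04g0251491, stood at 334, 291 and 292 CPM in the controls and at 273, 283 and 328 CPM at 20 min, which overlap. A second NADP-dependent gene, Lalb_Chr20g0108291, stood at 43.7, 49.4 and 44.2 CPM in the controls, at 15.5, 35.8 and 21.4 CPM at 20 min, at 35.9, 38.9 and 47.9 CPM at 40 min and at 48.8, 51.0 and 31.2 CPM at 80 min. Its 20 min plants were below every control, by a log2 fold change of -0.92 (SE 0.31; edgeR adjusted p = 0.288), and without 20 min replicate 2 the edgeR adjusted p was 0.0340. On chromosome 20 this gene lies near the ATP-citrate synthase Lalb_Chr20g0108311, with 1 gene between them.

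**Figure D3:**
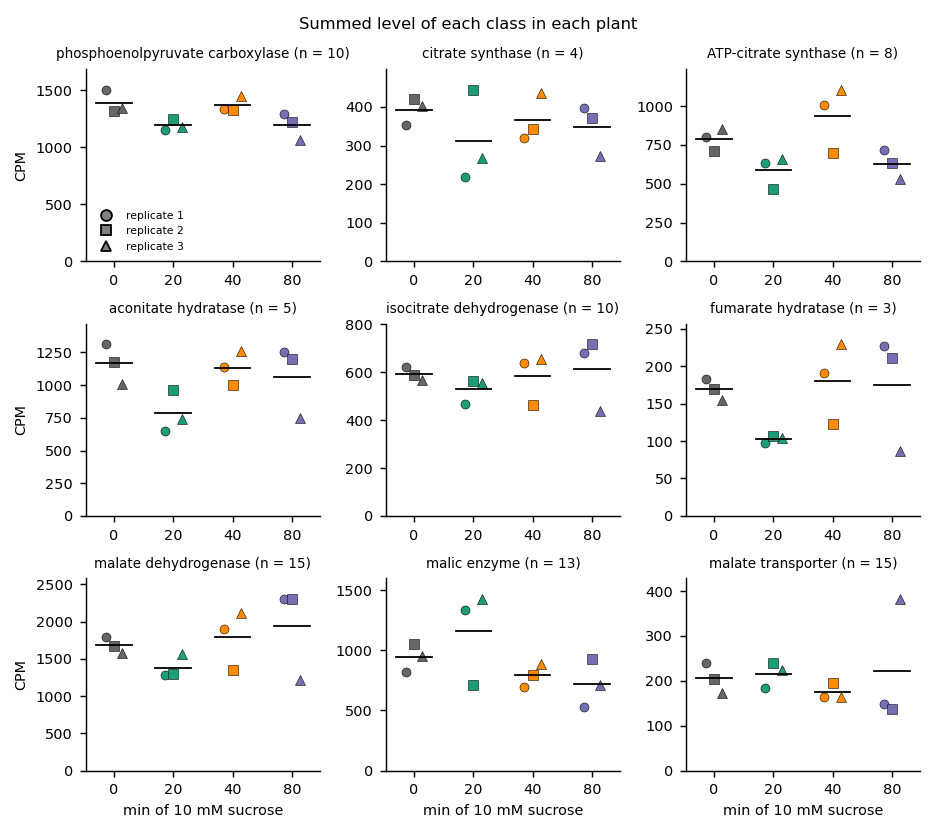
Summed CPM of the genes of each class in each plant, by minutes of 10 mM sucrose (0 is the untreated control); symbols are replicates and bars are means of 3 plants, with n the number of genes. At 20 min the sums of fumarase, aconitase, phosphoenolpyruvate carboxylase, ATP-citrate synthase, isocitrate dehydrogenase and malate dehydrogenase lie below every control. Those of citrate synthase, malic enzyme and malate transporter overlap the controls. Some gaps are narrow: the highest 20 min sum and the lowest control are 562 and 569 CPM for isocitrate dehydrogenase. They are 1559 and 1576 CPM for malate dehydrogenase. The share of sums of like size over other genes that separate so is not given here. For malate dehydrogenase 80 min replicate 3 lies at 1219 CPM while the other plants of its group lie at 2304 and 2305.

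ATP-citrate synthase, which draws citrate off into acetyl-CoA, held the gene with the smallest p at 20 min. Lalb_Chr20g0108311, of 423 residues, stood at 229.8, 187 and 172 CPM in the controls and at 37.1, 91.8 and 63.8 CPM at 20 min. It stood at 97.3, 87.4 and 120.0 CPM at 40 min and at 70.4, 114 and 53.8 CPM at 80 min. All 9 sucrose plants were below every control. The log2 fold change was -1.61 at 20 min (SE 0.36; edgeR adjusted p = 0.178, DESeq2 adjusted p = 0.00194), -0.95 at 40 min (SE 0.35; edgeR adjusted p = 0.689) and -1.31 at 80 min (SE 0.36; edgeR adjusted p = 0.324, DESeq2 adjusted p = 0.0250). Without 20 min replicate 2 the edgeR adjusted p at 20 min was 0.0285, and the other 11 fits that each left out 1 library kept it above 0.05.

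The authors' deposited table gives Lalb_Chr20g0108311 a log2 fold change of -1.63 at 20 min, with an adjusted p of 0.00261. The 8 genes of the class summed to 801, 708 and 853 CPM in the controls, to 631, 464 and 663 CPM at 20 min, to 1005, 697 and 1105 CPM at 40 min and to 716, 634 and 528 CPM at 80 min. The sums at 20 min lay below every control, and at 40 min replicates 1 and 3 lay above every control.

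A second gene of 423 residues, Lalb_Chr16g0382131, stood at 72.4, 98.1 and 70.0 CPM in the controls, 49.6, 16.4 and 92.6 CPM at 20 min, 88.0, 118 and 81.5 CPM at 40 min and 10.6, 12.5 and 45.5 CPM at 80 min. The 80 min plants lay below every control and every 40 min plant. The log2 fold change was -1.81 against control (SE 0.66; edgeR adjusted p = 0.441) and -2.07 against 40 min (SE 0.66; edgeR adjusted p = 0.961). Without 20 min replicate 2 and 80 min replicate 3 these were -2.81 and -3.06, with edgeR adjusted p-values of 0.0109 and 0.0157.

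Malate dehydrogenase, the largest class by level, summed to 1794, 1676 and 1576 CPM in the controls and to 1280.1, 1299 and 1559 CPM at 20 min, below every control. It summed to 1898, 1346 and 2122 CPM at 40 min and to 2304, 2305 and 1219 CPM at 80 min. At 80 min replicates 1 and 2 were above every control and replicate 3 was below them all. The top gene, Lalb_Chr21g0312041, had this pattern with 520.2, 546 and 523 CPM in the controls, 443, 383 and 512 CPM at 20 min, 542, 407 and 677 CPM at 40 min and 758, 764 and 394 CPM at 80 min. Its log2 fold change at 20 min was -0.25 (SE 0.29; edgeR adjusted p = 0.757).

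The minor malate dehydrogenase Lalb_Chr13g0303211, of 412 residues, stood at 28.1, 25.4 and 19.6 CPM in the controls, 13.5, 18.3 and 5.38 CPM at 20 min, 14.6, 9.52 and 11.9 CPM at 40 min and 11.7, 11.5 and 17.1 CPM at 80 min. All 9 sucrose plants were below every control. The log2 fold change at 40 min was -1.02 (SE 0.40; edgeR adjusted p = 0.735). Lalb_Chr07g0195631, at 0.696 FPKM, held 0.438, 1.01 and 0.495 CPM at 20 min and 0.953, 2.25 and 2.00 CPM at 40 min, which overlap.

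Malic enzyme, which runs from malate to pyruvate, had higher sums than the controls in 2 of the 3 plants at 20 min. The 13 genes summed to 819.5, 1056 and 956 CPM in the controls and to 1338, 712 and 1427 CPM at 20 min. Replicates 1 and 3 were above every control and replicate 2 was below them, as they were for alcohol dehydrogenase 1 and the low-oxygen list. The leaf list was also above every control in replicates 1 and 3, and within the controls in replicate 2. The part of low oxygen or leaf tissue in the malic enzyme sums was not tested. The top gene Lalb_Chr11g0064571, of 576 residues, was split likewise, at 296, 534 and 502 CPM in the controls, 746, 259.8 and 809 CPM at 20 min, 232, 331 and 377 CPM at 40 min and 48.3, 478 and 279 CPM at 80 min. Its log2 fold change at 20 min was 0.45 (SE 0.68; edgeR adjusted p = 0.821).

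Single malic enzymes lay on both sides of the controls at 20 min. Lalb_Chr17g0339901 stood at 108, 121 and 115 CPM in the controls, 66.9, 94.7 and 64.9 CPM at 20 min, 89.2, 109 and 114 CPM at 40 min and 87.5, 91.1 and 84.2 CPM at 80 min. Its 20 min plants were below every control, with a log2 fold change of -0.60 (SE 0.18; edgeR adjusted p = 0.265, DESeq2 adjusted p = 0.0348; edgeR adjusted p = 0.0298 without 20 min replicate 2).

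Lalb_Chr14g0373041 stood at 70.5, 60.9 and 54.1 CPM in the controls, 103, 69.8 and 83.9 CPM at 20 min, 60.2, 60.3 and 64.9 CPM at 40 min and 53.6, 48.9 and 59.2 CPM at 80 min. Against control the log2 fold change at 20 min was 0.47 (SE 0.18; edgeR adjusted p = 0.343), with overlap. From 20 to 80 min it was -0.66 (SE 0.18; edgeR adjusted p = 0.165, DESeq2 adjusted p = 0.0108) without overlap. The malic enzyme with the largest fold change at 20 min in the plot of fold changes, Lalb_Chr23g0269701, held 0, 3 and 62 reads in the controls and 370, 43 and 1367 reads at 20 min, a log2 fold change of 4.54 (SE 2.00; edgeR adjusted p = 0.389).

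The malate transporters, anion channels of the ALMT family that in wheat release malate from root tips exposed to aluminium, were mostly of low level. The 15 genes summed to 239, 203 and 174 CPM in the controls, 183, 239.9 and 224 CPM at 20 min, 164, 195 and 165 CPM at 40 min and 148, 138 and 382 CPM at 80 min. The sum of 382 CPM was 80 min replicate 3. In that plant Lalb_Chr02g0149651 stood at 112 CPM, while replicates 1 and 2 held 9.05 and 5.65 CPM and the controls 17.6, 4.51 and 18.2 CPM.

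The top transporter, Lalb_Chr06g0168631, stood at 151, 111 and 61.9 CPM in the controls, 94.4, 103 and 106 CPM at 20 min, 44.4, 73.7 and 52.2 CPM at 40 min and 47.1, 45.4 and 161 CPM at 80 min. The groups overlapped at each time, and 80 min replicate 3 was the highest of all 12 plants.

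The transporter Lalb_Chr01g0020191, of 423 residues and 0.940 FPKM, stood at 3.61, 4.99 and 4.37 CPM in the controls. It stood at 0.982, 0.239 and 1.54 CPM at 20 min, 0.775, 0.356 and 0.570 CPM at 40 min and 2.41, 2.05 and 1.92 CPM at 80 min. All 9 sucrose plants were below every control, and the 80 min plants were above every plant of the 2 earlier times. The gene was named for its small p in these same values, so the separation is not separate evidence. The log2 fold change was -2.22 at 20 min (SE 0.60; edgeR adjusted p = 0.231, DESeq2 adjusted p = 0.00473), -2.93 at 40 min (SE 0.62; edgeR adjusted p = 0.180, DESeq2 adjusted p = 4.55e-05) and 1.90 from 40 to 80 min (SE 0.60; edgeR adjusted p = 0.928, DESeq2 adjusted p = 0.0764). Without 20 min replicate 2 the edgeR adjusted p at 40 min was 0.0213. That comparison holds no 20 min plant. The groups are fitted together with a shared spread, so this p moved without a change in the counts compared. The 20 min values rest on 65, 9 and 118 reads and the control values on 186, 281 and 273 reads. The authors' deposited table gives -2.24 at 20 min and -2.96 at 40 min, with adjusted p-values of 0.00421 and 3.5e-05.

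**Figure D4:**
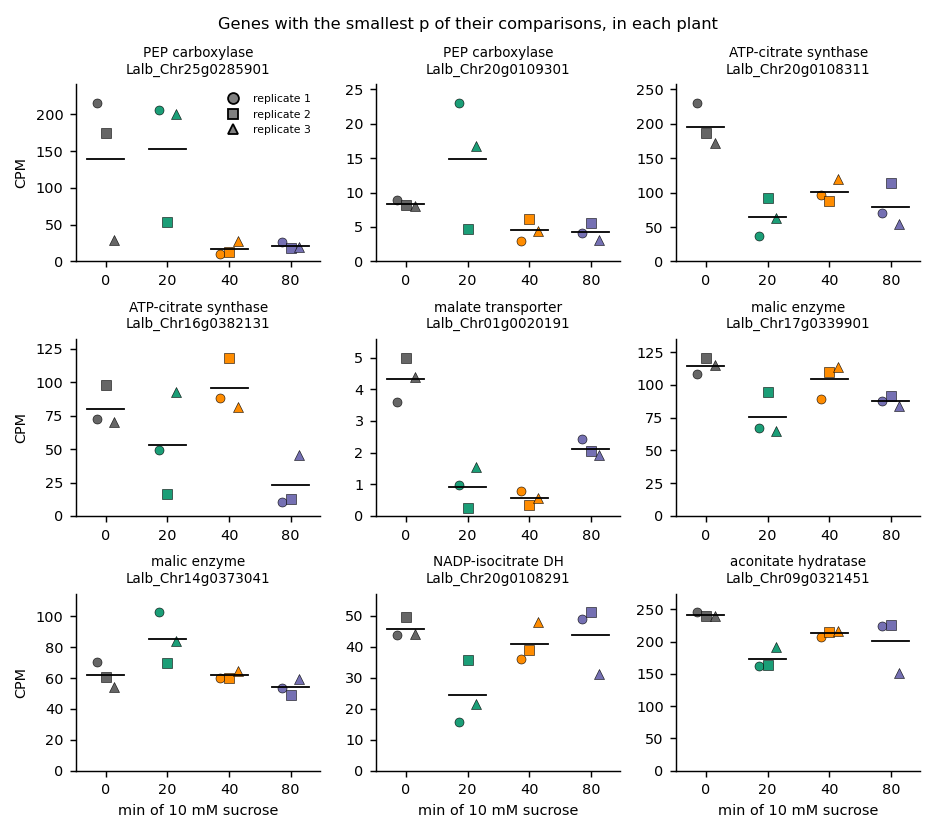
CPM in each plant of 9 of the genes with the smallest p in a comparison, by minutes of 10 mM sucrose (0 is the untreated control); symbols are replicates and bars are means of 3 plants. The ATP-citrate synthase Lalb_Chr20g0108311 and the malate transporter Lalb_Chr01g0020191 lie below every control in all 9 sucrose plants. The genes were chosen by p from these same values, so such separation is not separate evidence. In both carboxylases 20 min replicate 2 lies apart from its group.

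Without 20 min replicate 2 and 80 min replicate 3, edgeR tested 78 of the genes and called 8 at 20 min against control, all lower (10.3%; all genes 8.16%). They were the ATP-citrate synthase Lalb_Chr20g0108311, the carboxylase Lalb_Chr01g0006821, the aconitases Lalb_Chr03g0028741 and Lalb_Chr09g0321451, the NADP-dependent isocitrate dehydrogenase Lalb_Chr20g0108291, the malic enzyme Lalb_Chr17g0339901 and the transporters Lalb_Chr01g0020191 and Lalb_Chr21g0306501. At 40 min 1 gene was called (1.28%; all genes 0.846%), the transporter Lalb_Chr01g0020191, and at 80 min 3 (3.85%; all genes 5.54%), all lower, the citrate synthase Lalb_Chr10g0106821 and the ATP-citrate synthases Lalb_Chr16g0382131 and Lalb_Chr18g0046171.

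Between sucrose times in that fit, 9 genes were called for 40 against 20 min, 6 higher and 3 lower at 40 min (11.5%; all genes 10.7%), 2 for 80 against 40 min, both lower (2.56%; all genes 2.27%), and 14 for 80 against 20 min, 8 higher and 6 lower (17.9%; all genes 17.8%). In the F test 14 were called (17.9%; all genes 15.2%). The fit leaves 2 plants at 20 min and 2 at 80 min, and its shares of called genes were near the background in each comparison. Its control and 40 min plants are the same as in the main fit.

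Genes of neighbouring steps were found by words in the protein names. Some matched by wording only. Among them are 2-isopropylmalate synthases in the glyoxylate cycle list and a pyruvate kinase-like protein in the pyruvate kinase list. Others are a flavinator of succinate dehydrogenase and a phosphatase of pyruvate dehydrogenase. Over the 10 lists that held any, 136 of 164 genes were tested and 0 were called by edgeR in any comparison. At 20 min the unadjusted p was below 0.05 for 20 of them (14.7%; all genes 12.6%), at 40 min for 7 (5.15%; all genes 5.99%) and at 80 min for 13 (9.56%; all genes 9.91%). It was below 0.05 for 29 in 40 against 20 min (21.3%; all genes 14.2%), 8 in 80 against 40 min (5.88%; all genes 4.51%), 31 in 80 against 20 min (22.8%; all genes 17.3%) and 17 over the 4 times (12.5%; all genes 13.4%). DESeq2 called 4 at 20 min (2.99%; all genes 4.51%), 1 at 40 min (0.746%; all genes 2.05%) and 4 at 80 min (3.10%; all genes 3.22%). Between sucrose times it called 6 in 40 against 20 min (4.65%; all genes 5.25%), 2 in 80 against 40 min (1.55%; all genes 0.901%) and 11 in 80 against 20 min (8.53%; all genes 7.93%), and over the 4 times 10 (7.75%; all genes 8.67%).

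At 20 min the median log2 fold change of all genes tested was 0.06, and 7 of the 10 lists had a median below 0. It was -0.45 over the 18 tested genes named pyruvate dehydrogenase, which feeds acetyl-CoA into the cycle, with 0 higher and 4 lower at an unadjusted p below 0.05. It was -0.36 over 19 genes of the pyruvate kinase list (1 higher, 1 lower) and -0.35 over 21 of the succinate dehydrogenase list (3 higher, 2 lower). The median was -0.42 over 5 succinyl-CoA ligase genes (0 higher, 1 lower) and -0.94 over 3 oxoglutarate dehydrogenase genes (0 higher, 1 lower). It was -0.29 over 15 plasma membrane proton ATPases (1 higher, 0 lower) and -0.51 over 8 carbonic anhydrases (0 in either direction). The median was above 0 in the other lists, 0.31 over 5 phosphoenolpyruvate carboxykinases (1 higher, 0 lower), 0.23 over 39 genes of the MATE family (4 higher, 1 lower) and 0.21 over 3 genes matched by the words for the glyoxylate cycle (0 in either direction).

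The most abundant plasma membrane proton ATPase, Lalb_Chr18g0052441, a pump that energises anion release, stood at 1704, 1457 and 1254 CPM in the controls and at 465, 2064 and 509 CPM at 20 min, and so split the 20 min plants as the citrate synthase Lalb_Chr25g0283641 did. The most abundant gene of the MATE family, which holds citrate exporters in other plants, was Lalb_Chr25g0283091, at 99.7, 55.5 and 87.6 CPM in the controls and 27.5, 176 and 56.7 CPM at 20 min. The top phosphoenolpyruvate carboxykinase, Lalb_Chr08g0242701, which returns oxaloacetate to phosphoenolpyruvate, stood at 116, 159 and 99.8 CPM in the controls, 24.5, 40.4 and 15.2 CPM at 20 min and 9.86, 2.12 and 132 CPM at 80 min. Its 20 min plants were below every control, and 80 min replicate 3 was within them. The words for a phosphoenolpyruvate carboxylase kinase, which switches the carboxylase on, and for mitochondrial dicarboxylate or tricarboxylate carriers matched 0 genes.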

How the data were processed

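RNA was measured in 12 root libraries, 3 plants in each of 4 groups. The deposited read counts per gene are whole numbers without normalization, per the file headers. The authors also deposited FPKM per gene and library, and DESeq2 results for each sucrose time against control (log2 fold change, p-value, adjusted p-value), per the file headers. In genes with over 200 reads in every library, the ratio of reads to FPKM, scaled by library, had a median coefficient of variation of 0.0207%, so the deposited FPKM follows the counts. Per the submitters' processing notes the tools named were HISAT2, StringTie, DESeq2, bcl2fastq 2.20, Trimmomatic 0.32 and FastQC, with no role or order. A genome build and a strand setting are not given in these sources, so no coordinates or sequences are printed.

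The filter filterByExpr of edgeR kept 28980 of 33388 genes. The main test was the quasi-likelihood F test of edgeR 4.0.16 in R 4.3.3 (robust, TMM scaling), fitted to the 4 groups of all 12 libraries together (8 residual degrees of freedom), with Benjamini-Hochberg adjustment over all genes tested. SE is the absolute log2 fold change over the root of F. DESeq2 1.42.0 was run on the same genes, and an adjusted p it did not give was left missing. The steps were tested on simulated data. The share of true differences they find at the spread of these libraries is not given here. Depth limits low genes: 3 reads correspond to 0.0286 to 0.0795 CPM, and this floor covers counting error only.

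The genes, related lists and tests were chosen with earlier results of these data known. Named genes are the highest by mean FPKM in each of 9 classes, the 5 with the smallest p in each comparison with control, and the 3 with the smallest p in each other comparison. Other genes named were chosen after their values were seen. Of 12 related lists, the most abundant gene could be named. Of the 89 identifiers, 89 matched NCBI's annotation of CNRS_Lalb_1.0, used only for chromosome names and neighbours. Alternatives were DESeq2, RLE size factors, no filter, fits to the groups compared only, a replicate block, and leaving out single libraries or the 2 that stand apart. For the 24 fold changes with the smallest p in the comparisons of 2 groups, the ratio of group means of the deposited FPKM was also taken.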

Additional observations from a re-analysis of the deposited data

How the results depend on the processing

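The count of called genes was 0 in every comparison with RLE size factors in place of TMM, with no filter on low counts and with each pair of groups fitted alone. It was also 0 in each comparison in the fit with a replicate block. The 18 pairs of libraries with the same replicate number had correlations of deviations from -0.22 to 0.16 (median 0.013), with 3 over 0.1. The 36 pairs with different numbers had a median of -0.0049, with 7 over 0.1. With 3 plants a group and libraries that stand apart, these correlations cannot settle whether the numbers pair the plants. DESeq2 called 3 genes at 20 min, 2 at 40 min, 2 at 80 min, 2 for 40 against 20 min, 3 for 80 against 20 min and 5 over the 4 times. Without 20 min replicate 2 and 80 min replicate 3 the counts were 8, 1 and 3 against control, 9, 2 and 14 for 40 against 20, 80 against 40 and 80 against 20 min, and 14 over the 4 times. Leaving out each library in turn gave counts from 0 to 4 at 20 min, 0 to 1 at 40 min, 0 to 5 for 40 against 20 min, 0 to 11 for 80 against 20 min and 0 to 4 over the 4 times, and 0 in the other 2 comparisons. The highest counts came without 20 min replicate 2, except for the 11, which came without 80 min replicate 3 (4 without 20 min replicate 2), and the cause was not tested. Over the 4 times the count without 80 min replicate 3 was 1. The shares of all genes called in the fits without single libraries are not given here, so these counts were not set against a background. Direction was followed in 24 fold changes, those with the smallest p in the comparisons of 2 groups, so they were chosen from these same values. The other fold changes printed above were not followed in this way. All 24 kept their direction under the 19 settings run on them, which the choice by p makes likely, so this is not separate evidence. Of these values, 422 were counted as unchanged and 34 passed the threshold. The 422 include the ratios of group means of the deposited FPKM, which have no p and were compared by direction only. The other unchanged values stayed on the same side of the threshold. Depth left 15 of the 89 genes untested.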
